A study of Eriocheir sinensis with 2 samples.

Results

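Molecular chaperones and protein folding catalysts were followed by compartment in the Y-organ of the Chinese mitten crab *Eriocheir sinensis*. A unigene, an assembled transcript sequence, was taken as a member when the name of its best hit in the nr protein database held a word for these proteins (heat shock, HSP, chaperonin, T-complex protein, chaperone, DnaJ, the 2 spellings of disulfide isomerase, calreticulin, calnexin, endoplasmin, prefoldin, cyclophilin, peptidyl-prolyl, FK506 and glucose-regulated). Of 47966 unigenes with reads, 124 matched, and 4 of them were left out because the best hit came from a ciliate genus, which left 120 members. By words for the protein family in the name, 58 were placed in the cytosol and nucleus, 28 in the endoplasmic reticulum (ER) and 7 in the mitochondrion. Of the rest, 11 are specialised assembly factors (the mitochondrial chaperone BCS1 among them) and 2 are stress regulators. A further 8 name no family, and 6 match the words by accident (HSPC and T-complex protein 11 names). Location in the crab was not tested. An HSP70 precursor (Unigene16532_A0A) and a DnaJ precursor (Unigene22919_A0A), for example, were counted in the cytosol and nucleus.

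Chaperones bind proteins that are not yet folded, or have lost their fold, and release them in cycles that mostly use ATP. In the cytosol, HSP70 works with DnaJ (HSP40) proteins and hands a subset of its clients to HSP90, while the ring chaperonin CCT and its partner prefoldin fold actin and tubulin. The ER has its own HSP70, named BiP or GRP78, with disulfide isomerases and lectin chaperones for secreted proteins, and the mitochondrion uses HSP60 and HSP10. In animals in general, 1 set of HSP70 genes is expressed all the time and another set is switched on by heat, wounding and other stress. The Y-organ itself secretes ecdysteroids, the hormones that start the molt.

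C1 is the library of crabs whose eyestalks were removed, the organ that holds the neuroendocrine tissue restraining the Y-organ. C0 is the library of untreated crabs. In both groups Y-organs of *E. sinensis* of 5 to 6 g body weight were taken after 48 h, with 30 crabs in each group and 1 library per group. A sham operation is not described, so ablation and wounding cannot be told apart.

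With 1 library per group no difference has a replicate check. For each unigene the split of reads between the libraries was put to an exact binomial test (two-sided), which tests these 2 libraries and not the 2 conditions. Differentially expressed unigenes (DEUs) are those whose p, adjusted by Benjamini-Hochberg over all 47966 unigenes, did not exceed 0.001 and whose log2 ratio of C1 to C0 lay above 1 or below -1. Intervals are 95% intervals that cover counting error only, because each group has 1 library. They treat every read as independent, which PCR copies are not, so they can be too narrow even for that. In tissue RNA, fewer cells of a type and less RNA per cell cannot be told apart.

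In units of 1000, unigene reads numbered 3751 in C1 and 4152 in C0, so that a unigene without a read could still hold up to 7.998e-05% (C1) or 7.22e-05% (C0) of them, a floor of 3 reads. A short list of annotation words for ecdysteroid synthesis found 3 unigenes, taken as markers of the Y-organ. Together they took 69258 RPM (reads scaled to a library of 1000000 unigene reads) in C1 and 66862 in C0. One of these unigenes held 536436 reads over both libraries, nearly all of the sum, and 1 of the 3 was a DEU higher in C1. The list is incomplete. The authors name more unigenes of this pathway, and report that of its first step, from cholesterol, as lower after ablation. Markers of other cell types were counted in the same way. The summed level of 14 hemocyte marker unigenes was 9515 RPM in C1 and 2335 in C0, that of 185 unigenes with a ciliate best hit was 2748 and 7826, that of 78 muscle unigenes 2859 and 3395, that of 21 cuticle unigenes 1095 and 545, and that of 16 hepatopancreas unigenes 585 and 600. In C1, 0 hemocyte, 6 ciliate, 4 muscle, 5 cuticle and 1 hepatopancreas markers had no read, and in C0 0, 14, 2, 1 and 0 had none. A single unigene held 40524 of the hemocyte marker reads of both libraries and another 5827 of the cuticle marker reads, and the median log2 ratios of those lists were -0.59 and 0.002. The part of these markers in the results was not tested.

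The members together had 31449 reads in C1 and 37443 in C0, or 0.838% (95% exact interval 0.829 to 0.848%) and 0.902% (0.893 to 0.911%) of the unigene reads. Reads from both libraries fell on 114 members, 1 member had reads in C1 alone and 5 in C0 alone, and the most reads on any of these 6 were 8. Abundance was very uneven, and the 13 most abundant members, each with 1000 reads or more over both libraries, held 81.6% of the reads.

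Among the members, 2 were DEUs higher in C1 and 11 were DEUs lower in C1. Over all unigenes 2.32% were called higher and 1.7% lower, against 1.67% and 9.17% of the members, and over unigenes with an nr annotation the shares were 2.16% and 2.98%. Members were more abundant than unigenes in general, with a median of 43.5 reads in both libraries together against 16. Among unigenes with at least 100 reads, 11.6% were called higher and 8.85% lower, and of the 47 members with that many reads 2 (4.26%) were higher and 9 (19.1%) lower. No test of these shares was made. Of the 11 lower DEUs, 9 belonged to the cytosol and nucleus, 1 to the ER and 1 to no named family. The 9 include 4 short HSP70 unigenes that may be fragments of 1 transcript. Without the HSP70 class the lower DEUs numbered 7.

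**Figure D1:**
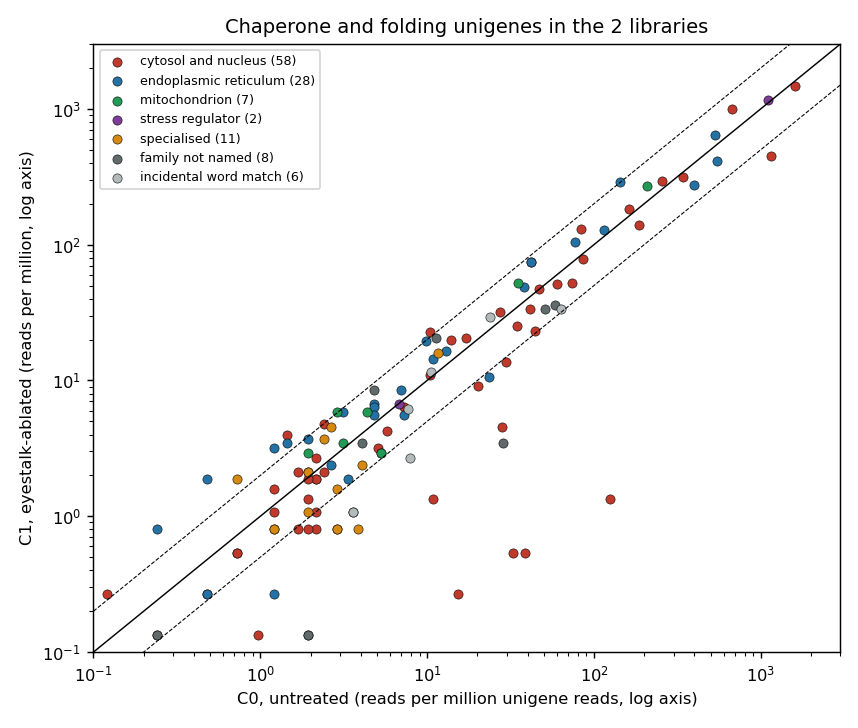
Level in RPM of the 120 members in C1 (vertical log axis) and C0 (horizontal log axis), 1 point per unigene and coloured by compartment. The solid line marks equal levels, the dashed lines a 2-fold difference, and a count of 0 is drawn at 0.5 read. Most members lie between the dashed lines, and the 4 cytosolic points far below them are HSP70 unigenes with 1 to 5 reads in C1.

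HSP70, the central ATP-driven chaperone of the cytosol, was split between 1 abundant unigene that was no DEU and 4 short unigenes that fell to between 1 and 5 reads in C1. Unigene20777_A0A (2116 bp), whose best hit is an *E. sinensis* HSP70, had 5504 reads in C1 and 6699 in C0, or 693 and 762 RPKM (RPM per kilobase of unigene). Its log2 ratio of -0.14 (interval -0.19 to -0.09) did not reach the threshold. It ranked 43 (C1) and 44 (C0) by reads among the annotated unigenes.

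Unigene27677_A0A (739 bp), with a best hit to the HSP70 of the vent crab *Cyanagraea praedator*, had 5 reads in C1 and 520 in C0. Its level was 1.80 RPKM in C1 and 169 RPKM in C0, with a log2 ratio of -6.42 between -7.79 and -5.32 (adjusted p = 2.23e-133 in the exact binomial test). That is 85.5-fold lower in C1 (39.97 to 221). Reads covered 33.2% of this unigene in C1 and 99.9% in C0.

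The other 3 were shorter still and behaved alike. Unigene1112_A0A (357 bp, best hit in the vent crab *Segonzacia mesatlantica*) had 2 reads in C1 and 160 in C0, with an interval of the log2 ratio of -8.05 to -4.30. Unigene687_A0A (254 bp, best hit in the moth *Hepialus pui*) had 2 reads in C1 and 135 in C0 (-7.81 to -4.05). For Unigene30567_A0A (205 bp, best hit in the vent shrimp *Rimicaris exoculata*) the reads were 1 in C1 and 64 in C0 (-8.37 to -3.34). All 4 were DEUs, and their levels lay between 1.301 and 2.10 RPKM in C1 and between 75.2 and 169 RPKM in C0.

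Together these 4 unigenes, grouped here because each was a DEU, had 10 reads in C1 and 879 in C0. Among the 9035 annotated unigenes with 10 or more reads over both libraries, they held ranks 1, 2, 3 and 5 from the lowest log2 ratio, the last a tie. Unigene27677_A0A stayed a DEU in the exact test of edgeR when the biological coefficient of variation (BCV) was set to 0.4, the only member to do so, and the other 3 stayed DEUs with one of 0.2. The counts do not show how many genes the 4 unigenes stand for, since fragments of 1 transcript and closely related copies look the same in such a table, and unique mapping can lose or split reads of near-identical copies. The intervals of the abundant HSP70 and the 4 short ones do not overlap in these 2 libraries. This holds whatever library size is used, because scaling moves them together. The 4 were grouped as DEUs and the abundant one was none, so the gap follows in part from the grouping.

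The 2 remaining HSP70 members had best hits outside the animals. Unigene37183_A0A (slime mold hit) had 16 reads in C1 and 24 in C0, and Unigene16532_A0A (hit in the parasite *Perkinsus marinus*) had 0 and 4. Summed over all 7 unigenes, HSP70 took 1474 RPM in C1 and 1832 in C0 (log2 ratio of the sums -0.31), and 26 of the 5530 C1 reads and 907 of the 7606 C0 reads fell outside the abundant unigene. The HSP110 class, which exchanges the nucleotide of HSP70, was represented by Unigene20653_A0A (HSPA4L-like, 520 reads in C1 and 770 in C0, log2 ratio -0.42, no DEU) and by Unigene20654_A0A with 3 and 5 reads.

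**Figure D2:**
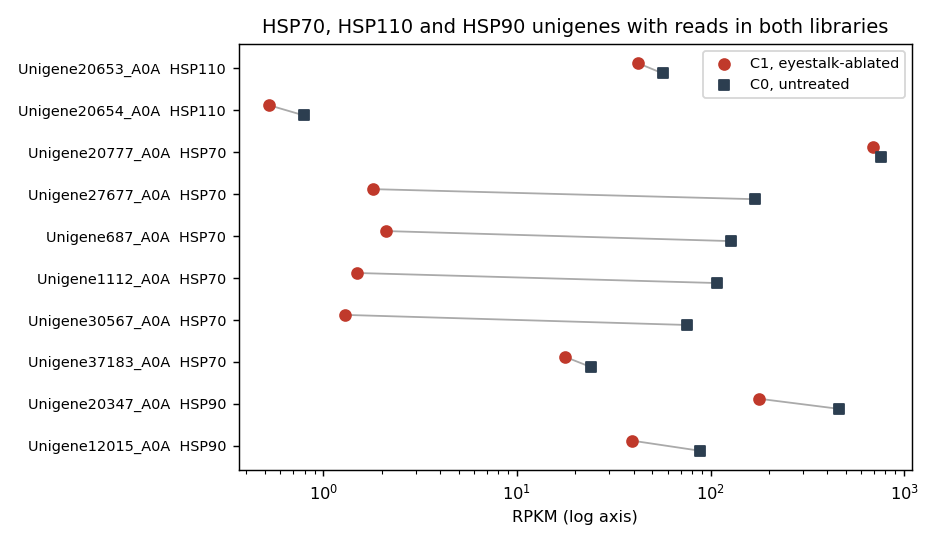
RPKM (log axis) of the HSP70, HSP110 and HSP90 unigenes with reads in both libraries, C1 as circles above C0 as squares. The abundant HSP70 sits at 693 RPKM in C1 and 762 in C0, while 4 other HSP70 unigenes sit at 1.301 to 2.10 in C1 and 75.2 to 169 in C0. HSP90 Unigene20347_A0A lies at 178 RPKM in C1 and 459 in C0.

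HSP90, the chaperone of kinases and of steroid hormone receptors, was also lower in C1. Unigene20347_A0A (2505 bp, best hit the *E. sinensis* HSP90) had 1673 reads in C1 and 4772 in C0, or 178 and 459 RPKM. This was 2.58-fold lower in C1 (interval 2.44 to 2.72), with a log2 ratio of -1.37 and an adjusted p of 9.35e-272 in the exact binomial test. Its rank by reads among the annotated unigenes was 167 in C1 and 77 in C0. It stayed a DEU with an assumed BCV of 0.1 but not with one of 0.2.

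Unigene12015_A0A (230 bp), an HSP90 fragment with its best hit in *P. marinus*, was a DEU as well, with 34 reads in C1 and 84 in C0 (log2 ratio -1.15, interval -1.73 to -0.59), although not with an assumed BCV of 0.1. The organism it comes from was not tested. Unigene1537_A0A, an HSP90 with a hit in *Chilodonella*, a ciliate outside the genera that were left out, had 1 read in C1 and 0 in C0.

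The helpers of HSP70 and HSP90 were uneven. Unigene11640_A0A, annotated as HSPA binding protein 1 (HSPBP1), a cochaperone that promotes nucleotide release from HSP70, was a DEU with 51 reads in C1 and 124 in C0 (log2 ratio -1.13, interval -1.60 to -0.67), although not with an assumed BCV of 0.1. The HSP90 cochaperone CDC37, which delivers kinases, had 120 and 24 reads in C1 on Unigene45641_A0A and Unigene7528_A0A, against 114 and 30 in C0, and neither was a DEU. BAG3 (Unigene40631_A0A) had 11 reads in C1 and 22 in C0. Outside the members, and chosen after its values were seen, Unigene49471_A0A, annotated as stress-induced phosphoprotein 1, which links HSP70 to HSP90, was a DEU with 114 reads in C1 and 271 in C0 (log2 ratio -1.10, interval -1.42 to -0.79). The other unigenes of that name were no DEUs, Unigene16478_A0A with 36 reads in C1 and 59 in C0 (-0.56) and Unigene38218_A0A with 17 and 11 (0.75). Chosen in the same way, hsc70-interacting protein (Unigene9570_A0A, 183 reads in C1 and 276 in C0) and hypoxia up-regulated protein 1 (Unigene14207_A0A, 42 and 39) were no DEUs either.

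DnaJ proteins deliver clients to HSP70 and start its ATP hydrolysis. Among the 17 DnaJ unigenes of the cytosol and nucleus 1 was a DEU. Unigene24646_A0A (651 bp, HSP40 of the locust as best hit) had 17 reads in C1 and 117 in C0, which is 6.06-fold lower in C1 (interval 3.76 to 10.3, adjusted p = 9.24e-16 in the exact binomial test). The 2 unigenes with a shrimp HSP40 as best hit did not follow it. Unigene8626_A0A had 178 reads in C1 and 194 in C0, and Unigene46067_A0A had 125 and 171. The most abundant DnaJ, Unigene9383_A0A, had 193 reads in C1 and 250 in C0 (log2 ratio -0.23, interval -0.50 to 0.04). Unigene1638_A0A had 77 reads in C1 and 71 in C0, and neither it nor the remaining 12 were DEUs.

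Unigene40873_A0A (495 bp), whose annotation reads only molecular chaperone with a tick protein as best hit, had 13 reads in C1 and 119 in C0. It was 7.996-fold lower in C1 (interval 4.70 to 14.5) and, like the locust-type HSP40, stayed a DEU with an assumed BCV of 0.2. Of the other members without a named family, Unigene46135_A0A (chaperonin) had 135 reads in C1 and 243 in C0 (log2 ratio -0.70) and Unigene48768_A0A had 127 and 211 (-0.58), and neither was a DEU. Unigene48387_A0A (heat shock protein 67B2) had 77 reads in C1 and 47 in C0.

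The chaperonin CCT folds actin and tubulin inside a double ring of different subunits. Its abundant subunits were no DEUs. CCT alpha (Unigene8539_A0A) had 1177 reads in C1 and 1425 in C0 (log2 ratio -0.13), and CCT theta (Unigene9326_A0A) had 686 and 676 (0.17, and -0.001 with the TMM factors of edgeR). The gamma subunit had 2 unigenes, Unigene44770_A0A with 87 reads in C1 and 183 in C0 (-0.92) and Unigene45510_A0A with 95 and 144 (-0.45), and neither was a DEU, although the first became one with TMM factors. The single DEU of the class was Unigene31171_A0A (297 bp), annotated as the epsilon subunit with an acorn worm protein as best hit, which had 5 reads in C1 and 45 in C0 (log2 ratio -2.90, interval -4.31 to -1.73) and was no DEU with an assumed BCV of 0.2.

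Prefoldin, which passes nascent actin and tubulin to CCT, took 576 RPM in C1 and 467 in C0. Prefoldin 4 (Unigene7779_A0A) had 1099 reads in C1 and 1064 in C0, and prefoldin 3 (Unigene49009_A0A) had 292 and 357. Unigene19901_A0A, a prefoldin without a subunit name, had 489 reads in C1 and 345 in C0 (log2 ratio 0.65, interval 0.45 to 0.85), and prefoldin 5 (Unigene47881_A0A) had 280 and 175 (0.82, 0.55 to 1.10). None was a DEU. The only small heat shock protein, Unigene20713_A0A, had 75 reads in C1 and 58 in C0, which covered only 7.63% and 7.8% of its length.

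Cyclophilins and FK506-binding proteins turn the peptide bond before proline. Cyclophilin A (Unigene19943_A0A, best hit in *E. sinensis*) had the highest RPKM of all members in both libraries, 1319 in C1 and 884 in C0, with 3750 and 2783 reads. Its log2 ratio of 0.58 (interval 0.51 to 0.65) stayed under the threshold. The nuclear, splicing-related cyclophilins were much scarcer. PPIL4 (Unigene53858_A0A) had 196 reads in C1 and 306 in C0 (log2 ratio -0.49), and PPIL3 (Unigene13865_A0A) had 41 and 43.

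The 5 FK506-binding protein unigenes had 19 reads in C1 and 31 in C0 together, of which Unigene33797_A0A had 8 and 10, Unigene33177_A0A (FKBP8) 5 and 8, and Unigene18813_A0A (FKBP1A) 3 and 8. At this depth no difference was detectable for them.

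**Figure D3:**
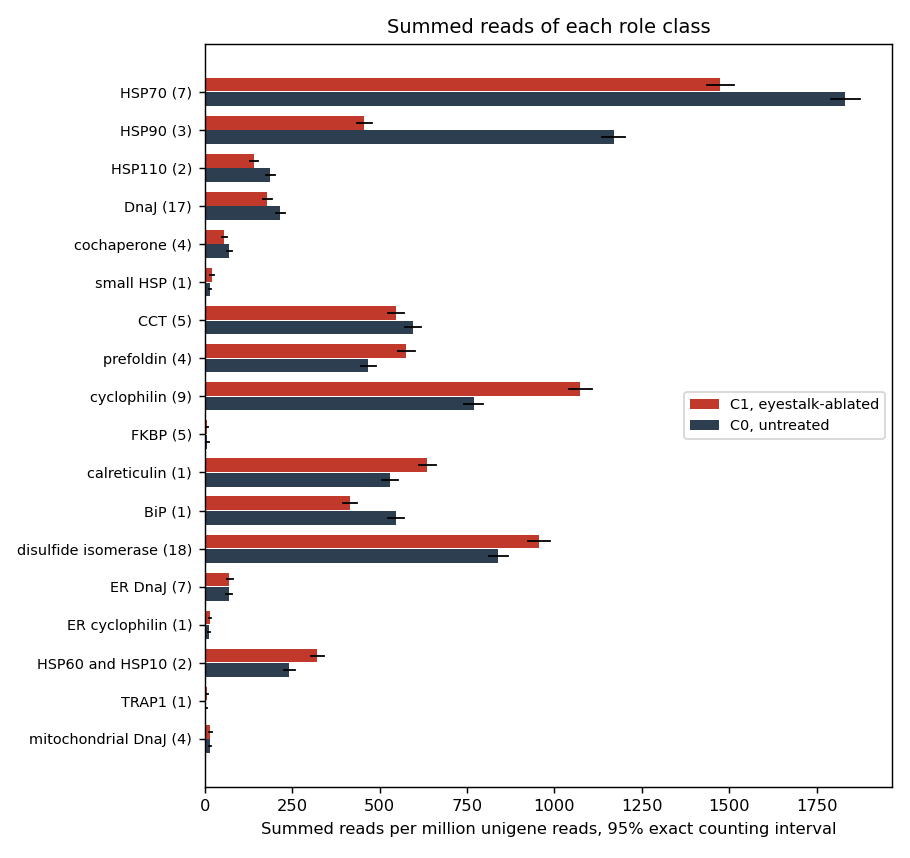
Summed RPM of 18 role classes in C1 (upper bar) and C0 (lower bar), with 95% exact intervals for counting error and the number of unigenes in parentheses. HSP90 shows the widest relative gap among the abundant classes, 455 in C1 and 1169 in C0, while cyclophilins were at 1074 and 768 and disulfide isomerases at 956 and 839.

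In the ER 17 of the 23 members with at least 10 reads had a positive log2 ratio, with a median of 0.36. In the cytosol and nucleus it was 17 of 50, with a median of -0.21. Disulfide isomerases made up 12 of the 17 in the ER, and some of them share 1 annotation and may be fragments of 1 transcript. Of all 28 ER members, the intervals of 6 lay above 0 and those of 4 below 0. Of the 58 in the cytosol and nucleus, 8 lay above 0 and 17 below. The median of all 30436 unigenes with at least 10 reads was 0.15. Over the 9035 of these with an nr annotation, which every member has, it was -0.07. The summed ER reads were nearly level, 2092 RPM in C1 and 1994 in C0, and this small difference turned round with TMM factors (log2 ratio of the sums 0.07, and -0.10 with TMM). No test of the 2 compartments against each other was made.

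BiP (GRP78, Unigene19995_A0A), the HSP70 of the ER lumen and a usual marker of ER stress, had 1558 reads in C1 and 2270 in C0, or 184 and 242 RPKM. Its log2 ratio was -0.40 (interval -0.49 to -0.30), under the threshold for a DEU. Calreticulin (Unigene20950_A0A), a lectin chaperone for glycoproteins that also binds calcium, had 2387 reads in C1 and 2197 in C0 (log2 ratio 0.27, interval 0.18 to 0.35). Unigenes annotated as calnexin or as endoplasmin numbered 0 each.

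Disulfide isomerases make and rearrange the disulfide bonds of secreted proteins. The 18 unigenes took 956 RPM in C1 and 839 in C0, and the log2 ratios of their leading members differed in sign. Unigene20060_A0A (1449 bp, mud crab hit) was a DEU with 1085 reads in C1 and 595 in C0, or 200 and 98.9 RPKM. Its log2 ratio of 1.01 (interval 0.87 to 1.16) lay just past the threshold and was 0.84 with TMM factors, so that the call rests on the library size. Unigene18876_A0A (PDI 1, louse hit) had 1036 reads in C1 and 1658 in C0, a log2 ratio of -0.53 (interval -0.64 to -0.42).

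All 6 disulfide isomerases with a shrimp or crab hit, a subset not set in advance, had positive log2 ratios, Unigene20060_A0A included. The intervals of 4 of them lay above 0. Those of Unigene48539_A0A (-0.37 to 1.31) and Unigene18892_A0A (-0.43 to 1.25) included 0. How many genes the 6 unigenes stand for was not tested. Unigene48240_A0A had 395 reads in C1 and 318 in C0 (log2 ratio 0.46), Unigene18891_A0A had 280 and 174 (0.83), and Unigene20386_A0A had 73 and 41 (0.97). None of these was a DEU. Reads covered only 8.31% of the 2250 bp of Unigene18891_A0A in C1 and 8.27% in C0. PDIA6 (Unigene45061_A0A) had 483 reads in C1 and 478 in C0. A further member of the class, Unigene4809_A0A, had 0 reads in C1 and 8 in C0.

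Among the DnaJ proteins of the ER, DNAJB9 (Unigene55562_A0A), which binds BiP and is a target of the unfolded protein response in mammals, was the DEU of the compartment that was lower in C1, with 40 reads in C1 and 97 in C0 (log2 ratio -1.12, interval -1.66 to -0.60). It was not a DEU with an assumed BCV of 0.1. DNAJC3 (Unigene25535_A0A), another mammalian target of that response, had 183 reads in C1 and 158 in C0, and DNAJC14 (Unigene17060_A0A) had 22 and 13. The secretory cyclophilin B (Unigene20612_A0A) had 54 reads in C1 and 45 in C0.

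**Figure D4:**
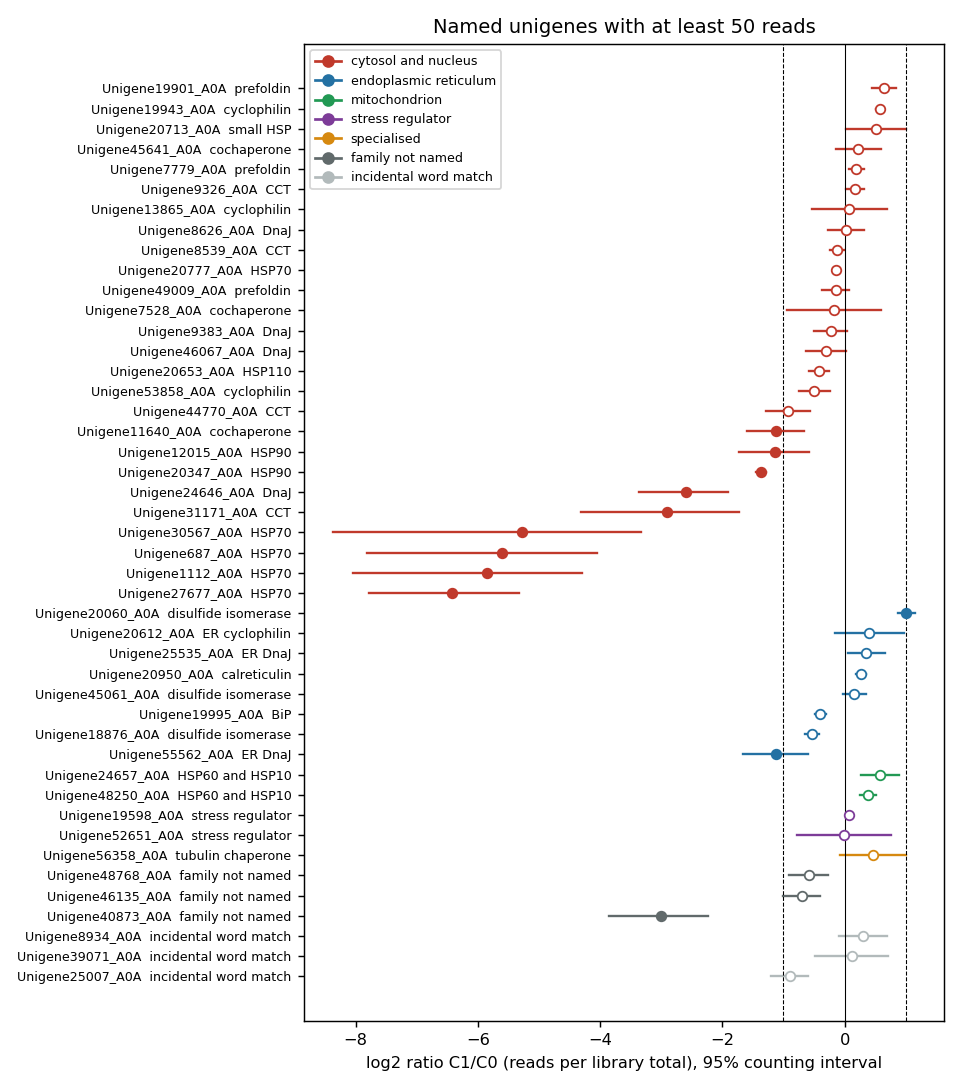
The log2 ratio (C1/C0) of members with 50 or more reads over both libraries, with 95% counting intervals, grouped by compartment. Shown are members reported here under the fixed naming rule given with the processing. Members chosen after their values were seen and genes outside the members are not drawn. Filled points are DEUs and the dashed lines mark the log2 threshold of 1. The 4 HSP70 unigenes have ratios between -6.42 and -5.28, below those of the other members shown, and most ER and mitochondrial points lie at or above 0.

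In the mitochondrion HSP60 and its lid HSP10, which form the folding chamber of the matrix, had positive log2 ratios. HSP60 (Unigene48250_A0A) had 1009 reads in C1 and 858 in C0 (log2 ratio 0.38, interval 0.25 to 0.51), and HSP10 (Unigene24657_A0A) had 197 and 146 (0.58, interval 0.27 to 0.89). Both ratios stayed positive with TMM factors, but neither unigene was a DEU. TRAP1 (Unigene48306_A0A), the mitochondrial HSP90, had 22 reads in C1 and 12 in C0. DNAJC11, a protein of the mitochondrial membranes, was spread over 4 unigenes with 57 reads in C1 and 61 in C0, and Unigene15230_A0A had 22 and 18 of them, Unigene52371_A0A 11 and 22, and Unigene33929_A0A 13 and 13. Their intervals all include 0. The compartment had 0 DEUs.

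Of the stress regulators, Unigene19598_A0A, annotated as activating transcription factor of chaperone, an insect factor of the ATF4 kind, was among the most abundant members with 4388 reads in C1 and 4596 in C0, or 323 and 306 RPKM. Its log2 ratio of 0.08 became -0.09 with TMM factors. The heat shock factor binding protein (Unigene52651_A0A), which restrains heat shock factor in mammals, had 25 reads in C1 and 28 in C0.

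The specialised factors were scarce. The tubulin chaperones, which assemble tubulin dimers, had 107 reads in C1 and 131 in C0 over 8 unigenes. Chaperone D had 60 reads in C1 and 48 in C0 on Unigene56358_A0A, 9 and 17 on Unigene33709_A0A, and 14 and 10 on Unigene27673_A0A. A cofactor E-like unigene (Unigene31714_A0A) had 3 reads in C1 and 16 in C0 (interval of the log2 ratio -3.95 to -0.59, adjusted p = 0.0471, exact binomial test), and was no DEU. The proteasome assembly chaperone 2 (Unigene37124_A0A) had 17 reads in C1 and 11 in C0, and the BCS1 unigenes, whose product inserts the iron-sulfur protein of respiratory complex III, had 7 and 3 (Unigene38679_A0A) and 3 and 5 (Unigene29243_A0A). Of the accidental matches, the T-complex protein 11-like Unigene25007_A0A had 127 reads in C1 and 263 in C0 (log2 ratio -0.90, and a DEU only with TMM or median-ratio scaling among the library sizes tried), Unigene8934_A0A (HSPC300-like, a regulator of actin) had 110 and 99, and Unigene39071_A0A had 43 and 44.

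**Figure D5:**
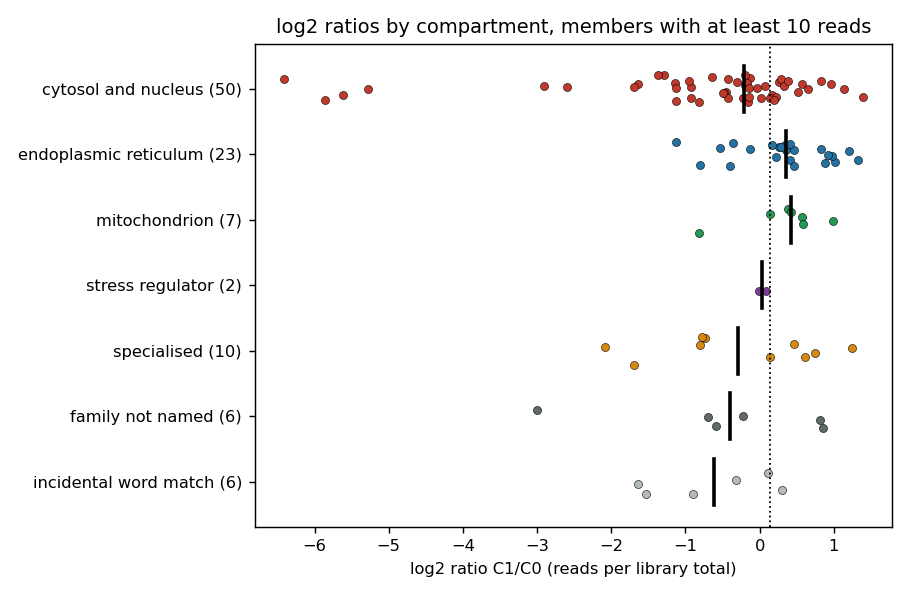
The log2 ratio (C1/C0) of each member with 10 or more reads over both libraries, by compartment, with the number of members in parentheses. Thick bars are medians and the dotted line is the median of all unigenes, 0.15. That of annotated unigenes, -0.07, is not drawn. The median was 0.36 in the ER, 0.43 in the mitochondrion and -0.21 in the cytosol and nucleus, where 4 HSP70 unigenes lie below -5. That of the mitochondrion rests on 7 members, 4 of them DNAJC11 unigenes with 57 reads in C1 and 61 in C0 together.

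Other protein quality control genes, selected by their annotation outside the members, numbered 42, of which 0 were DEUs higher in C1 and 1 was lower. Among all annotated unigenes 2.16% were called higher and 2.98% lower, so 1 lower in 42 is near that share. The 42 genes covered the unfolded protein response, ER-associated degradation, and the import and glycosylation machinery of the ER. Their summed level was 1252 RPM in C1 and 1290 in C0. The DEU was Unigene14518_A0A, a subunit of the signal peptidase complex that trims imported proteins, with 26 reads in C1 and 70 in C0. XBP1 (Unigene19044_A0A), the transcription factor of the unfolded protein response whose mRNA is spliced by IRE1, had 1201 reads in C1 and 2475 in C0, a log2 ratio of -0.90 (interval -0.996 to -0.80) that passed the threshold at -1.07 with TMM factors. In the opposite direction, the Sec61 alpha channel (Unigene8877_A0A) had 1401 reads in C1 and 856 in C0 (log2 ratio 0.86, interval 0.73 to 0.98), and the oligosaccharyltransferase subunit STT3A (Unigene45528_A0A) had 349 and 240 (0.69). Neither reached the threshold. The alpha subunit of the signal recognition particle receptor, also of the import machinery, did not follow them. Unigene46212_A0A had 277 reads in C1 and 396 in C0 (log2 ratio -0.37, interval -0.59 to -0.15), and Unigene49242_A0A had 134 and 136. Of the 36 genes of this list with at least 10 reads, 20 had a positive log2 ratio and 16 a negative one. IRE1 itself (Unigene6105_A0A) had 2 reads in C1 and 3 in C0.

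The members also differed in what their best hits were. A decapod protein was the best hit of 20 members, which held 18401 of the 31449 C1 reads and 22221 of the 37443 C0 reads. Other arthropods gave 68 best hits, other animals 25 and unicellular organisms 6, and 1 had no species. Of the 11 lower DEUs, 4 had a decapod best hit, 3 another arthropod, 3 another animal and 1 a unicellular organism. Of all 185 unigenes with a ciliate best hit, 99 were DEUs lower in C1 and 0 higher, against 1.7% and 2.32% of all unigenes. The median log2 ratio of the 153 with at least 10 reads was -1.76. The 4 matches left out for a ciliate best hit are among the 185, and their reads went both ways. Unigene1307_A0A, a disulfide isomerase of *Tetrahymena*, had 59 reads in C1 and 155 in C0 and was a DEU (log2 ratio -1.24), while Unigene31586_A0A, an HSP70 of *Euplotes*, had 13 and 1 (interval 1.27 to 6.42, adjusted p = 0.00770, exact binomial test). The other 2 had at most 4 reads.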

How the data were processed

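The authors mapped filtered reads with SOAPaligner/soap2 (version not given in the sources used here) to unigenes of an earlier transcriptome. They deposited raw counts of uniquely mapped reads, RPKM values scaled to the summed counts, and the percent of each unigene covered, the only coverage measure. Columns without a sample numbered 0. The authors' own log2 ratios, p-values and false discovery rates were not used. Unigene identifiers matched 0 genes of the RefSeq table for assembly ASM2467909v1, and no sequence of a unigene was used here.

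The deposited counts were tested with scipy 1.17.1 in Python 3.11.15 (pandas 2.3.3, numpy 2.4.6), and figures drawn in matplotlib 3.10.9. Library size was the summed unigene reads, 0.5 read was added for log2 ratios, and intervals are Wilson (ratios) or exact (shares). edgeR's quasi-likelihood test needs replicates, so an exact binomial test was used. It was checked on simulated counts that held counting error only, as the test assumes. That check cannot cover variation between crabs or libraries. Alternatives used edgeR 4.0.16 (R 4.3.3): TMM factors, and its exact test with an assumed BCV of 0.1, 0.2 or 0.4. Others were median-ratio scaling, library sizes without the 10 most abundant or ciliate-hit unigenes, 1 read added, a minimum of 10 reads, Fisher's exact test, and log2 thresholds of 0.5 and 2.

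Named are all DEU members, the 3 members with most reads of each role class, members with at most 3 reads in 1 library and at least 16 in the other, and others chosen after their values were seen. A DEU member that this rule names is not reported here. Members and lists were chosen with earlier results of these data known.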

Additional observations from a re-analysis of the deposited data

How the results depend on the processing

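The choice of library size moved every log2 ratio by a constant, -0.17 with TMM factors and -0.15 with the median ratio. No paired analysis was possible because each group has 1 library, and for the same reason no library could be left out. The 11 lower members all remained DEUs under every library size tried, with 1 read added, with the minimum of 10 reads and in Fisher's exact test, and 8 remained with an assumed BCV of 0.1. With a BCV of 0.2 the lower members were 6, with 0.4 they were 1, and with a log2 threshold of 2 they were 7. Only arthropod best hits left 7, and so did leaving out HSP70, an alternative chosen after seeing the data. Without unicellular best hits, also chosen then, 10 remained. The 2 higher members were less stable. They numbered 0 with TMM factors, with the median ratio, with a BCV of 0.2 or 0.4 and with a log2 threshold of 2, 1 without the 10 most abundant unigenes or with a BCV of 0.1, and 6 with a log2 threshold of 0.5.

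Over all unigenes the DEUs were 1115 higher and 816 lower. The higher ones numbered 730 with TMM factors, 652, 101 and 1 with a BCV of 0.1, 0.2 and 0.4, and 312 with a log2 threshold of 2. The lower ones numbered 1053 with TMM factors and 989 with the median ratio, so that they then outnumbered the higher ones (730 and 757), and 194 and 7 with a BCV of 0.2 and 0.4, and 366 with that threshold.

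Compartment medians moved as follows. TMM and median-ratio scaling gave 0.19 and 0.21 in the ER, 0.26 and 0.28 in the mitochondrion, -0.38 and -0.36 in the cytosol and nucleus, and -0.14 and -0.11 for the stress regulators, whose median was 0.03. With members of at least 1 read the median was -0.32 in the cytosol and nucleus and -0.64 for members without a named family (-0.41 with at least 10 reads). With at least 50 reads it was -0.10 for the accidental matches (-0.61 before) and 0.47, a single unigene, for the specialised factors (-0.29 before). Depth set a limit, since no unigene with under 16 reads over both libraries was a DEU and 28 members were below that.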
